A study of Felis catus with 25 samples.

Results

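The comparison set 5 libraries of cat corneal cells that had been myofibroblasts and then received troglitazone together with GW9662 for 3 days against 5 libraries of the myofibroblasts from which that treatment started. These 10 of the 25 libraries of the series were chosen by their treatment labels, not by a measured value. All cells were fibroblasts of the cornea of the domestic cat (Felis catus), grown on collagen-coated dishes. FB, harvested at day 0, was untreated and in quiescence per the labels. TGFb had received transforming growth factor beta 1 (TGFb1) at 1 ng/ml for 2 days. For TrogGW the TGFb1 was removed at day 2 and replaced by 7.5 uM troglitazone and 10 uM GW9662 until day 5. Trog followed the same course with 7.5 uM troglitazone and no GW9662. Each group held 5 libraries. The series text calls the replicates independent and the labels call them biological, but neither says if cultures or donors differed. The spread that p-values are based on is that between libraries and may be technical. A day 5 group with TGFb1 removed and no drug was not analysed here. In the comparison of TrogGW with TGFb, both drugs, the removal of TGFb1 and 3 more days in culture therefore cannot be told apart, whereas TrogGW and Trog differ in the labels by GW9662 alone.

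Fibroblasts of the corneal stroma lay down the collagen that keeps the cornea clear. Under TGFb1 they become myofibroblasts, which build contractile stress fibres rich in alpha smooth muscle actin, the product of ACTA2, and secrete a dense, scar-like matrix. Troglitazone is a thiazolidinedione that activates PPAR-gamma, a nuclear receptor of fat cell differentiation and lipid storage, and thiazolidinediones also inhibit the mitochondrial pyruvate carrier formed by the MPC1 and MPC2 proteins. GW9662 blocks the ligand site of PPAR-gamma. The series title names mitochondria as a target in corneal fibrosis, and the comparison asks what the myofibroblast transcriptome became under troglitazone with that receptor blocked.

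Values below are CPM, a gene's counts relative to the total of its library after scaling by the trimmed mean of M values (TMM). They compare 1 gene across libraries and not 2 genes with each other. A range such as that of ACTA2 in Trog (198–374 CPM) runs from the lowest to the highest library. The TGFb libraries held 17.6 to 24.0 M counts and the TrogGW libraries 17.6 to 20.9 M. Of the counts, 22.3% ± 1.2 in TGFb and 8.56% ± 0.452 in TrogGW fell to a library's 10 highest genes (SD, n = 5), and a count was seen for 11203 ± 72.3 and 12054 ± 41.5 genes, each difference with a 2-sided p of 0.00794 in an exact permutation test, the smallest that 5 against 5 can give. With libraries scaled by their totals alone the median over all tested genes went on the log2 fold change scale from 0.09 to 0.94. A list's direction that turned under those totals is given with its count beside it. Within TrogGW, libraries correlated at 0.988 or more across genes, and replicate 1 lay closest to TGFb (0.866 to 0.870, against 0.842 to 0.859 for the other TrogGW libraries). Marker genes of fibroblasts summed to 37376 to 41902 CPM in TGFb and to 897 to 1890 CPM in TrogGW, in a list of 9 in the files. Most of the sum in TGFb was that of COL1A2. In RNA from whole cultures, fewer cells of a type and less RNA per cell cannot be told apart. The defining epithelial keratins KRT3 and KRT12 and the leukocyte genes PTPRC, AIF1 and TYROBP were at 0 in both groups. Summed markers of corneal epithelium (9 in the files) lay at 5.60 to 7.88 CPM in TGFb and 5.24 to 7.81 CPM in TrogGW, and those of immune cells (10) at 21.1 to 29.5 and 25.5 to 29.5 CPM. The epithelial sum hid opposite changes, with 2 of 4 tested members higher and 1 lower. EPCAM fell from 3.71–5.88 to 1.34–2.96 CPM, while PAX6 rose from 2 counts in all of TGFb to 271 in TrogGW. DSP also rose, but at no more than 0.395 CPM in FB, TGFb and Trog it entered the test only through TrogGW. The 9 markers of vascular endothelium gave 91.4 to 95.1 and 92.9 to 115 CPM, and the 6 of Schwann cells and melanocytes at most 0.507 CPM in any library of both groups. The 7 markers of corneal endothelium were lower in TrogGW, at 421 to 472 CPM against 1450 to 1754 CPM, and their part in the results was not tested.

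Most of the transcriptome moved. Of 10638 genes tested, 4972 (46.7%) were higher and 4194 (39.4%) lower in TrogGW than in TGFb at an adjusted p under 0.05 in the quasi-likelihood F test of edgeR, adjusted by Benjamini and Hochberg's method (BH), the rule by which a gene is said below to have risen or fallen. At least 2-fold differences were seen for 2217 higher genes (20.8%) and 1686 lower genes (15.8%). With library totals alone the counts were 8118 higher and 1614 lower, so counts of list members are read against a background in which nearly every gene is called and the split depends on the scaling. The genes of each list come from known pathways, but the lists were written with earlier results of these data known. Their counts are descriptions.

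The contractile genes of the myofibroblast fell most as a list, with the lowest median of the 32 lists described here. Of 18 tested contractile genes 15 fell and 3 rose, with a median log2 fold change of -3.55 against 0.09 over all genes. ACTA2 was at 9411, 9108, 8607, 9372 and 8496 CPM in TGFb replicates 1 to 5 and at 29.4, 5.84, 1.75, 2.18 and 7.65 CPM in TrogGW. The groups were far apart, and replicate 1 was the highest TrogGW library. The log2 fold change was -9.91 ± 0.51 (estimate ± SE, as for all log2 fold changes here, which are of TrogGW against TGFb unless another group is named; edgeR BH-adjusted p = 3.86e-16) and -11.03 without that replicate. ACTC1, a sarcomeric actin, was at 8811, 8525, 8101, 8472 and 7676 CPM in TGFb and 20.5, 6.58, 4.26, 4.75 and 6.38 CPM in TrogGW, again with replicate 1 highest and no overlap (-9.94 ± 0.37, and -10.57 without replicate 1). Reads of near-identical actin genes can be divided by the authors' counting, so the actin values are uncertain in that respect. The tropomyosins TPM1 and TPM2 fell (-5.71 ± 0.15 and -5.63 ± 0.15), TPM2 from 3190.4–3553 to 48.4–100.4 CPM. Leiomodin 1 (LMOD1) fell from 214–242 to 0.478–1.76 CPM, calponin 1 (CNN1) from 427–471 to 8.47–10.2 CPM and the stress fibre protein PDLIM7 from 548–592 to 36.6–56.0 CPM. Among the 3 members that rose was the intermediate filament gene DES, which reached only 1.48 to 2.52 CPM. The list of targets of the force-sensing regulators SRF and YAP, which also holds some of their partners, went the same way. In it 20 of 23 were lower and 2 higher, with a median of -1.52. ANKRD1, one of the best known YAP targets, was at 1973, 2030.5, 1929.8, 1568 and 1847 CPM in TGFb and at 0, 0.333, 0.159, 0.0347 and 0.211 CPM in TrogGW, close to the limit of detection in every treated library. FHL1, a muscle LIM protein, and CRIM1, a membrane protein that binds growth factors, fell (-5.01 ± 0.086 and -3.25 ± 0.091). The partners on the list moved in both directions. MRTFA, a coactivator of SRF, fell from 171–194 to 46.9–61.7 CPM, while its relative MRTFB (0.45 ± 0.076) and WWTR1, which encodes the YAP partner TAZ (0.56 ± 0.047), were the members that rose.

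**Figure D1:**
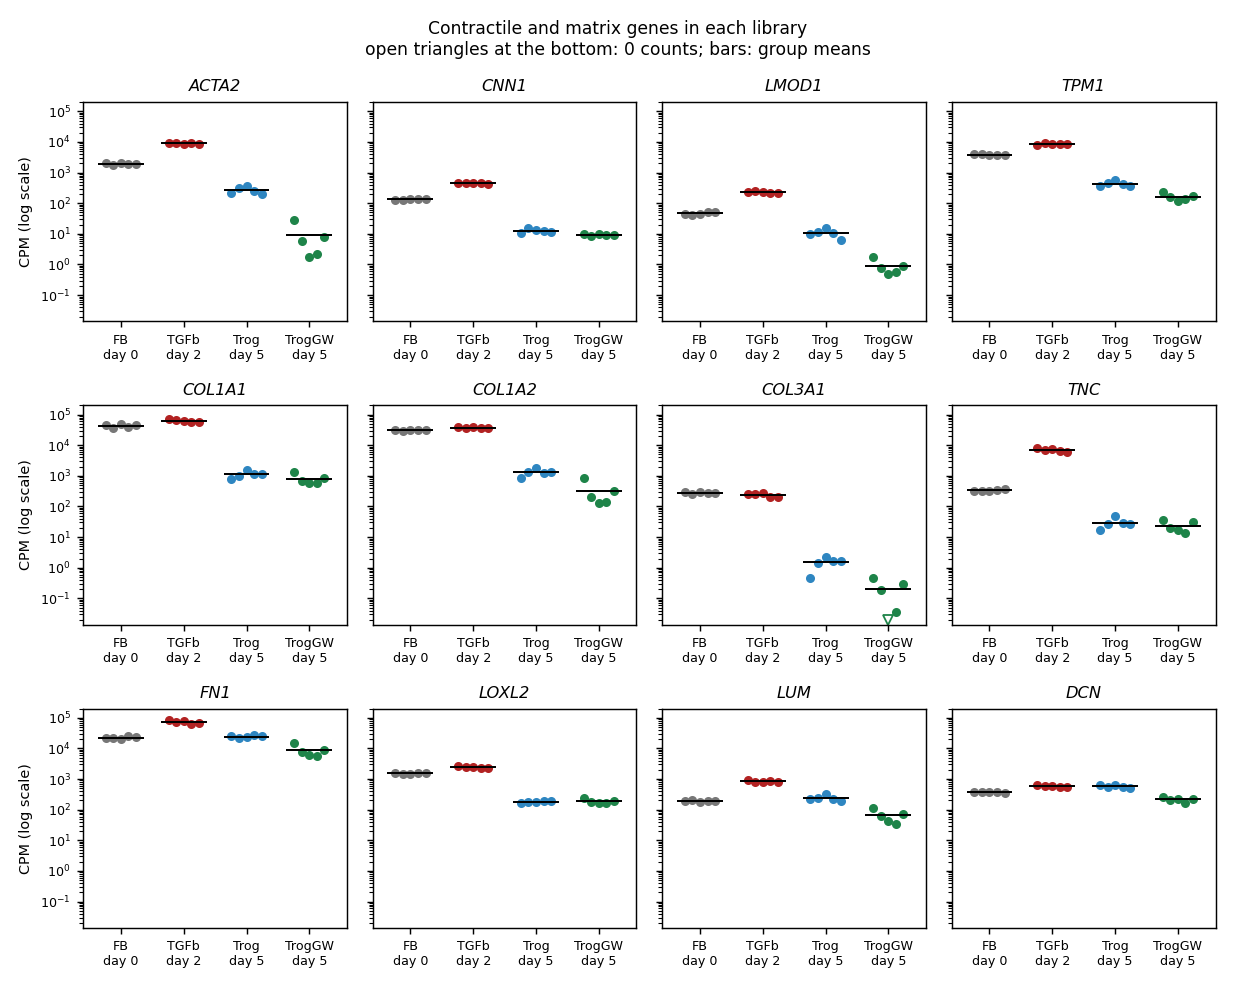
CPM on a log axis of 12 contractile and matrix genes, 1 panel per gene, with 1 point per library and a bar at the mean of each group (FB, TGFb, Trog and TrogGW, 5 libraries each). TrogGW lay below TGFb for all of these genes, and TrogGW replicate 1 was the highest of its group for ACTA2, COL1A1 and COL1A2.

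Collagen genes were lower throughout. All 18 tested collagen genes fell (median -3.25). COL1A1, the main collagen chain of the stroma, was at 69425, 64258, 62616, 55302 and 55171 CPM in TGFb and at 1338, 681, 588, 588 and 874 CPM in TrogGW, a log2 fold change of -6.24 ± 0.23 (edgeR adjusted p = 2.19e-19). Its partner chain COL1A2 was at 39395, 37131, 38348, 35582 and 35257 CPM and 824, 196, 132, 141 and 318 CPM, or -6.85 ± 0.40. The highest TrogGW value of each chain lay far below the lowest in TGFb, and leaving out replicate 1 of TrogGW moved COL1A2 to -7.56. COL3A1, abundant in healing tissue, was at 251, 264, 267, 207 and 211 CPM in TGFb but at 0–0.459 CPM in TrogGW (-10.25 ± 0.21, and -10.85 without replicate 1). COL5A1, which starts collagen fibrils and sets their width, fell from 8358–10392 to 159–331 CPM. The smallest fall of the list was that of COL5A3, from 163–193 to 23.1–60.7 CPM (-2.26 ± 0.15). Genes that process and cross-link collagen fell with it: 23 of 24 were lower and 1 higher (median -2.34). The collagen chaperone SERPINH1 had a log2 fold change of -3.72 ± 0.11, and the cross-linking lysyl oxidases LOXL1, LOXL2 and LOXL3 had -3.95 ± 0.08, -3.70 ± 0.082 and -3.01 ± 0.085. PCOLCE2, an enhancer of procollagen cleavage, was the member that rose, by 0.37 ± 0.12.

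All 27 tested genes of matricellular proteins and elastic fibres fell as well (median -3.30). Fibronectin, FN1, which held more counts than any other gene in TGFb, was at 82289, 74909, 78842, 64949.9 and 67781 CPM there and at 14963, 7401, 6148, 5650.4 and 9124 CPM in TrogGW (-3.09 ± 0.19). TNC, a matrix protein of healing wounds, was at 7828, 7007, 7762, 6408 and 6179 CPM in TGFb and 36.5, 20.05, 17.6, 13.4 and 31.1 CPM in TrogGW. The groups were far apart for TNC, with no overlap, at a log2 fold change of -8.21 ± 0.27 (edgeR adjusted p = 1.53e-20). VCAN, a large proteoglycan, fell (-5.71 ± 0.14), as did the elastic fibre genes FBLN5 and EFEMP2 (-4.99 ± 0.091 and -4.45 ± 0.10) and TGFBI, whose mutant protein deposits in corneal dystrophies (-5.62 ± 0.16). Of 11 tested keratocyte genes, which mark the resting cell of the clear stroma, 8 fell and 3 rose. The keratan sulfate proteoglycan LUM was at 961, 809, 832, 897 and 794 CPM in TGFb and 112, 62.3, 41.8, 33.5 and 74.5 CPM in TrogGW, where all libraries were lower and replicate 1 the highest. FMOD, PRELP and DCN, small proteoglycans of the same family, fell too (-2.45 ± 0.11, -3.97 ± 0.13 and -1.42 ± 0.08). The corneal crystallin ALDH3A1 rose, but from 0.121–0.447 to only 1.48–1.77 CPM. The growth factor receptors PDGFRA and PDGFRB, general marks of fibroblasts, rose (0.44 ± 0.077 and 0.72 ± 0.078), unlike the matrix genes. They were the 2 that rose of 8 tested fibroblast markers, of which 6 fell (median -1.59).

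Integrins and focal adhesion genes, which tie the cell to that matrix, were lower for 19 of 24 and higher for 5 (median -1.26). ITGA1, a collagen receptor, was at 1441, 1303, 1272, 1186 and 1244 CPM in TGFb and 311, 256, 214, 219 and 260.1 CPM in TrogGW with a wide gap between groups (-2.35 ± 0.081). ITGA3 and ITGA6, receptors for laminin, fell (-2.10 ± 0.072 and -2.80 ± 0.088). The collagen receptors ITGA2 and ITGA10 rose, ITGA2 from 6.10–8.85 to 54.8–107 CPM and ITGA10 from 0.895–1.75 to 12.0–17.1 CPM. Metalloproteinases and their inhibitors were divided, with 11 of 22 higher and 10 lower. TIMP1, a secreted inhibitor, was at 642, 549, 582, 645 and 536 CPM in TGFb and 2345, 2227, 2237, 1837 and 2308 CPM in TrogGW, all higher. TIMP2, another inhibitor, fell (-1.95 ± 0.062). The aggrecan-cleaving ADAMTS1 and ADAMTS5 rose (1.95 ± 0.084 and 1.88 ± 0.14), and ADAMTS15 fell from 31.0–40.5 to 0.139–0.344 CPM.

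The TGF-beta and BMP pathway showed no common direction: 15 of 35 genes rose and 15 fell, or 24 and 9 with library totals alone. TGFB1, the ligand itself, was at 33.9, 30.8, 35.5, 30.7 and 30.4 CPM in TGFb and 137, 141, 158, 124 and 147 CPM in TrogGW. Its RNA was thus higher in every library after the added protein had been removed (2.13 ± 0.07). BMP2, a ligand of the other branch, rose from 0.676–1.12 to 10.9–22.7 CPM. ID2, a target of BMP signals that TGF-beta lowers in many cells, was at 1.46, 1.16, 2.14, 1.12 and 2.30 CPM in TGFb and 54.5, 56.4, 47.8, 56.5 and 96.8 CPM in TrogGW (5.23 ± 0.20, edgeR BH-adjusted p = 5.77e-19). The SMAD corepressor TGIF1 rose (1.96 ± 0.074). INHBA, the activin subunit, FST, the activin trap, and the receptor TGFBR2 fell (-3.12 ± 0.074, -4.36 ± 0.16 and -1.33 ± 0.05). The signal transducer SMAD3 and the inhibitory SMAD7 rose (0.48 ± 0.06 and 0.32 ± 0.072).

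Secreted growth factors changed in both directions, 10 of 27 higher and 13 lower (15 and 11 with library totals alone). The pair of insulin-like growth factors separated. IGF1 was at 15.3, 16.3, 14.3, 18.3 and 17.4 CPM in TGFb and had no count in any TrogGW library, at least 707-fold lower by a floor of 3 counts over the group. IGF2 was at 4.85, 5.23, 5.36, 3.73 and 5.72 CPM in TGFb and 35.5, 67.3, 82.4, 71.5 and 59.9 CPM in TrogGW, every library higher (3.66 ± 0.18). The binding proteins IGFBP4 and IGFBP6 fell (-3.91 ± 0.1 and -3.50 ± 0.15), and so did PDGFD (-3.38 ± 0.15). EREG, a ligand of the EGF receptor, rose from 0.122–0.507 to 4.47–9.68 CPM. In Wnt signalling 9 of 21 rose and 11 fell (10 and 9 with library totals alone). The inhibitors DKK2 and SFRP1 and the receptor LGR4 fell (-4.68 ± 0.087, -3.24 ± 0.16 and -2.10 ± 0.064). TCF7, a transcription factor of the pathway and one of its targets, was at 0.849, 1.58, 0.958, 1.34 and 1.06 CPM in TGFb and 38.1, 52.0, 59.0, 44.1 and 46.2 CPM in TrogGW, with all TrogGW libraries higher (5.37 ± 0.15).

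**Figure D2:**
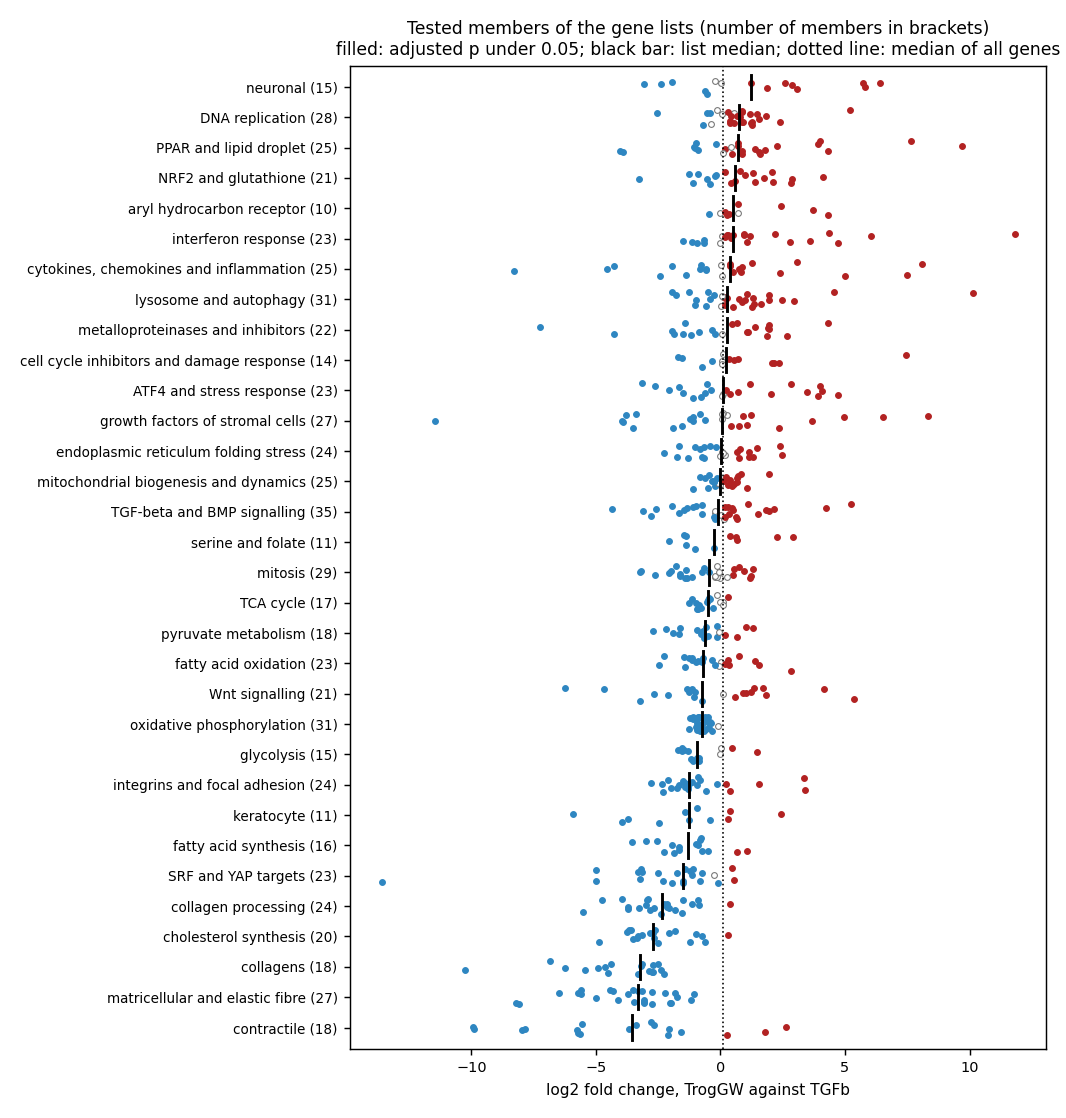
Log2 fold change of TrogGW against TGFb for each tested member of 32 gene lists (1 point per gene, red if called higher, blue if called lower and open if not called, with a bar at the list's median and a dotted line at the median of all genes). The contractile, collagen and matricellular lists had the lowest medians (-3.55, -3.25 and -3.30), and the shift by 0.85 that library totals alone give turned the medians of some lists near 0, among them oxidative phosphorylation (-0.75) and the TCA cycle (-0.51).

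PPAR-gamma RNA was near the limit of detection in these cells. PPARG had no count in any TGFb library and lay at 0.229, 1.04, 0.398, 0.312 and 0.507 CPM in TrogGW, at least 13.3-fold higher by the floor of 3 counts, but too low to enter the test. It had no count in Trog either, where TrogGW was at least 20.3-fold higher by the same floor. Of 34 PPAR and lipid droplet genes in the files, 25 passed the filter on low counts. Of these 16 rose and 7 fell (median 0.72). FABP4, the fatty acid carrier of fat cells and a standard PPAR-gamma target, had no count in TGFb and lay at 4.59, 4.40, 6.61, 3.68 and 4.82 CPM in TrogGW, at least 128-fold higher. In Trog, without the antagonist, it lay higher still, at 46.7, 33.1, 38.9, 39.0 and 33.1 CPM. TrogGW thus held an intermediate position, below Trog by a log2 fold change of -2.99 ± 0.13 (edgeR adjusted p = 2.62e-13) with no overlap. The related FABP5 stood at 2.18, 3.04, 2.14, 2.83 and 2.61 CPM in TGFb, 35.2, 43.1, 38.6, 35.6 and 38.1 CPM in TrogGW and 175, 147, 151, 151 and 151 CPM in Trog. The order of the groups was the same as for FABP4, with 3.90 ± 0.10 against TGFb and -2.02 ± 0.069 against Trog. ANGPTL4, a secreted inhibitor of lipoprotein lipase, also lay between, with 1.37 ± 0.14 against TGFb and -1.22 ± 0.12 against Trog.

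DGAT2, which makes triglyceride, had the same order of groups, with 4.33 ± 0.098 against TGFb and -0.42 ± 0.065 against Trog. Other lipid genes did not follow it. PDK4, the pyruvate dehydrogenase kinase and another PPAR target, had 1 count in all of TGFb and 4.02, 3.55, 2.99, 3.64 and 4.40 CPM in TrogGW, a ratio of 297 times (95% counting interval 53.1 to 11763). Its level in Trog was 3.04 to 4.92 CPM, with no difference called between Trog and TrogGW (-0.10 ± 0.15, edgeR BH-adjusted p = 0.531). PLIN2, the coat of lipid droplets, was at 348, 378, 375, 369 and 356 CPM in TGFb and 921, 1143, 1182, 1073 and 1116 CPM in TrogGW. All TrogGW libraries were higher, and they also exceeded all Trog libraries (666 to 749.6 CPM, 0.61 ± 0.058). LPL, the lipoprotein lipase, was at 99.2, 88.6, 88.7, 75.4 and 83.9 CPM in TGFb and 7.65, 5.73, 3.98, 5.03 and 6.26 CPM in TrogGW, all lower (-3.93 ± 0.10). FABP3, the heart form of the carrier, fell from 943–1118 to 48.5–73.9 CPM. The receptor genes PPARA and RXRA rose (2.26 ± 0.15 and 0.71 ± 0.069), and neither was called different from Trog (0.11 ± 0.12 and 0.018 ± 0.066).

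**Figure D3:**
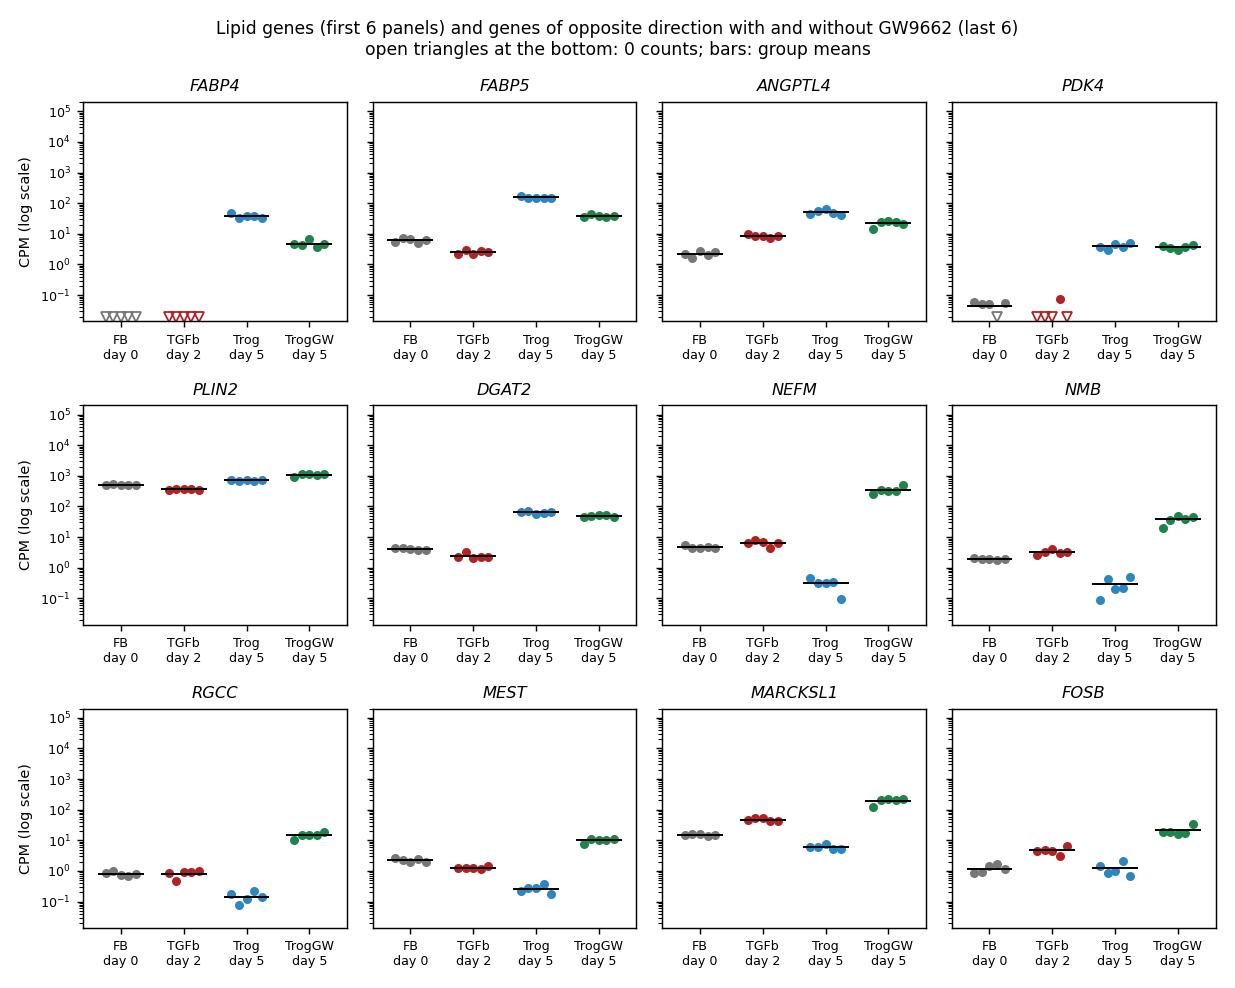
CPM on a log axis (libraries with 0 counts as open triangles at its foot) of 6 PPAR and lipid genes in the first 6 panels and 6 genes that moved in opposite directions in TrogGW and Trog in the last 6, with 1 point per library in FB, TGFb, Trog and TrogGW and a bar at the group mean. FABP4, FABP5 and ANGPTL4 lay lower in TrogGW than in Trog, and NEFM lay at 250 to 485 CPM in TrogGW but at 0.0919 to 0.472 CPM in Trog.

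The pyruvate carrier genes fell slightly. MPC1 was at 31.9, 28.8, 31.6, 30.7 and 28.9 CPM in TGFb and 20.6, 21.7, 21.7, 18.7 and 23.6 CPM in TrogGW, without overlap, at a log2 fold change of -0.52 ± 0.067 (edgeR adjusted p = 6.74e-08) that library totals alone turned to 0.34. MPC2 was at 48.2, 54.9, 52.1, 51.8 and 51.1 CPM and 31.5, 31.1, 32.8, 30.7 and 33.7 CPM, lower in every library at -0.69 ± 0.057, which library totals turned to 0.16. MPC2 overlaps DCAF6 on the genome, and the strand setting of the counting is not given, so its reads may include some of DCAF6. Of 18 pyruvate genes 13 fell and 4 rose (median -0.72 relative to all genes), but 11 rose and 5 fell with library totals alone. LDHA, which turns pyruvate into lactate, was at 6626, 7077, 6647, 7219 and 6755 CPM in TGFb and 1133, 1035, 971, 957 and 1087 CPM in TrogGW. The groups were far apart, and the direction was the same with library totals (-2.73 ± 0.071). The lactate exporter SLC16A3 and the kinase PDK1 fell (-1.92 ± 0.09 and -1.66 ± 0.07). SLC16A7, another monocarboxylate transporter, and PC, pyruvate carboxylase, rose (1.31 ± 0.076 and 1.01 ± 0.073). Glycolysis genes fell for 11 of 15 and rose for 2 (median -0.95), with -1.69 ± 0.076 for PFKL, -1.29 ± 0.058 for HK1 and -1.54 ± 0.079 for ENO1. With library totals alone 7 fell and 4 rose, and the list's median was close to 0 (-0.099).

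Under TMM scaling most oxidative genes fell, a direction that library totals turned. Of 31 subunits of the respiratory chain and ATP synthase 30 fell and 0 rose (median -0.75), whereas with library totals alone 15 rose and 5 fell. ATP5F1A, a subunit of ATP synthase, was at 487, 497, 509, 548 and 489.9 CPM in TGFb and 194, 229, 216, 201 and 218 CPM in TrogGW, with the groups apart (-1.26 ± 0.051). NDUFS4, a subunit of complex I, and ATP5F1B, of ATP synthase, fell (-1.24 ± 0.063 and -0.97 ± 0.049). In the TCA cycle 12 of 17 fell and 1 rose, against 3 lower and 10 higher with library totals alone. Citrate synthase (CS) and the malate dehydrogenase MDH2 fell (-1.14 ± 0.048 and -1.25 ± 0.052), and SDHB rose (0.32 ± 0.055). Fatty acid oxidation genes fell for 14 of 23 and rose for 7, against 8 lower and 11 higher with library totals. CPT1A, the gate of fatty acids into mitochondria, rose (1.37 ± 0.044) while CPT2, the next step, fell (-2.28 ± 0.058). Genes of mitochondrial biogenesis and dynamics were divided, 12 of 25 higher and 10 lower (23 and 1 with library totals). The mitochondrial chaperone HSPA9 and the DNA helicase TWNK rose (0.84 ± 0.048 and 1.05 ± 0.065), and the fission factor FIS1 fell (-1.08 ± 0.054).

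Cholesterol synthesis genes were lower, with 19 of 20 genes down, 1 up and a median of -2.69. HMGCS1, at the entry of the pathway, was at 507, 559, 603, 616 and 655 CPM in TGFb and 58.2, 58.2, 58.4, 54.3 and 60.2 CPM in TrogGW, with every TrogGW library lower (-3.34 ± 0.073, edgeR BH-adjusted p = 5.43e-24). SQLE, MSMO1 and TM7SF2, further along, fell (-3.16 ± 0.069, -3.77 ± 0.09 and -4.90 ± 0.10). STARD4, which carries cholesterol between membranes, rose (0.29 ± 0.093). Fatty acid synthesis followed, with 14 of 16 lower and 2 higher. The desaturase SCD was at 1073, 967, 941, 964 and 948 CPM in TGFb and 125, 147, 119, 114 and 117 CPM in TrogGW, all lower (-2.98 ± 0.08). FADS2 and ELOVL5, which desaturate and lengthen polyunsaturated chains, fell (-3.55 ± 0.083 and -2.56 ± 0.059). GPAM and AGPAT2, which begin the assembly of glycerolipids, rose (1.08 ± 0.054 and 0.67 ± 0.07).

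Genes of the amino acid stress response moved in both directions. In the ATF4 list 11 of 23 rose and 10 fell. SLC3A2, a shared chain of amino acid transporters, was at 47.1, 38.0, 39.6, 35.1 and 36.8 CPM in TGFb and 562, 663, 739, 780.5 and 609 CPM in TrogGW (4.09 ± 0.089). The cystine transporter SLC7A11, the pseudokinase TRIB3 and the transcription factor ATF3 rose (2.82 ± 0.10, 4.00 ± 0.14 and 3.49 ± 0.13), and no TrogGW library overlapped TGFb for these. DDIT3, the stress factor CHOP, rose from 4.77–10.6 to 202–231 CPM, and its span overlaps MARS1. STC2 and VLDLR, also on the list, fell (-3.15 ± 0.071 and -2.64 ± 0.069). Of the enzymes of serine and folate metabolism 5 of 11 rose and 6 fell (6 and 4 with library totals). SHMT2, which feeds serine carbon into the mitochondrial folate pool, and PSAT1, of serine synthesis, fell (-2.06 ± 0.054 and -1.40 ± 0.053), and the mitochondrial folate enzyme MTHFD2 rose (0.64 ± 0.055).

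In the list of NRF2 and glutathione genes 13 of 21 rose and 8 fell (median 0.60). GCLC, the rate-limiting enzyme of glutathione synthesis, was at 17.9, 18.9, 19.8, 17.7 and 18.8 CPM in TGFb and 271, 328, 371, 302 and 325 CPM in TrogGW. The lowest TrogGW library was far above the highest TGFb library (4.10 ± 0.07). FTH1, the ferritin heavy chain that stores iron, was at 1706, 2056, 1908, 2279.8 and 2039 CPM in TGFb and 13926, 14609, 15628, 13704 and 14251 CPM in TrogGW, where no gene had more counts (2.85 ± 0.087). Glutathione reductase (GSR) rose (1.73 ± 0.06), while the peroxiredoxin PRDX6 and the glutathione transferase MGST1 fell (-3.26 ± 0.06 and -1.28 ± 0.062). SQSTM1, the autophagy receptor p62, was at 232, 239.8, 236, 274 and 252 CPM in TGFb and 4243, 5907, 6876, 6475 and 5427 CPM in TrogGW, without overlap (4.55 ± 0.10). The lysosome and autophagy list rose for 19 of 31 and fell for 9. ULK1, which starts autophagy, rose (1.95 ± 0.08), as did GPNMB, a lysosomal membrane glycoprotein (2.96 ± 0.075). LAMP1 and the protease CTSZ fell (-1.81 ± 0.056 and -1.94 ± 0.058). Targets of the aryl hydrocarbon receptor rose for 7 of 10 and fell for 1, with CYP1A1, the classical target, going from 0.373–0.728 to 4.86–8.30 CPM. These CYP1A1 values overlapped those of FB (6.03–9.09 CPM) and Trog (4.25–11.0 CPM). Among the 7 was IDO1, at 0.936–1.23 CPM in TrogGW and at most 0.386 CPM in FB, TGFb and Trog. It passed the filter only through TrogGW and could only count as higher.

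Genes of protein folding in the endoplasmic reticulum (ER) were split, 9 of 24 higher and 11 lower (17 and 5 with library totals alone). HSPA5, the ER chaperone BiP, was at 1706, 1552, 1693, 1413 and 1491 CPM in TGFb and 11917, 7620.0, 6719, 10139 and 7416 CPM in TrogGW. Every TrogGW library was higher than TGFb (2.48 ± 0.13), but the gene lay at 16359.6, 19679, 16169.5, 16712 and 20740.0 CPM in Trog, where every library was higher still. HERPUD1 and EDEM1, of ER-associated degradation, rose (2.40 ± 0.083 and 1.29 ± 0.052). The disulfide isomerases PDIA3 and PDIA6 fell (-1.75 ± 0.063 and -1.67 ± 0.069). So did the transcription factors XBP1 (-1.32 ± 0.071) and CREB3L1, which is known to drive collagen genes (-2.26 ± 0.053).

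Cell cycle genes moved in both directions. Of 28 DNA replication genes 20 rose and 4 fell (median 0.73). CCNE2, the cyclin of S phase entry, was at 0.667, 0.548, 0.451, 0.149 and 0.560 CPM in TGFb and 16.2, 17.8, 15.9, 18.3 and 22.9 CPM in TrogGW, higher in every library (5.21 ± 0.17). The helicase subunits MCM6 and MCM7 rose (1.26 ± 0.074 and 1.83 ± 0.08), but their partner MCM3 fell from 102–122 to 12.1–27.5 CPM. Of 29 mitosis genes 15 fell and 7 rose, against 11 lower and 14 higher with library totals alone. The cytokinesis gene ANLN was at 24.0, 21.6, 23.1, 28.3 and 22.8 CPM in TGFb and 9.37, 9.28, 8.16, 10.3 and 9.09 CPM in TrogGW, all lower (-1.37 ± 0.088). ECT2 and CENPF fell (-1.33 ± 0.092 and -3.23 ± 0.28), and the spindle proteins TPX2 and PRC1 rose (1.24 ± 0.096 and 0.93 ± 0.10). Among the 14 inhibitors of the cycle and genes of damage response 7 rose and 4 fell. CDKN1A, the inhibitor p21, was at 65.9, 69.5, 66.9, 76.6 and 73.8 CPM in TGFb and 275, 289, 349, 314 and 329 CPM in TrogGW (2.14 ± 0.097). Its relative CDKN1C rose from 0.169–0.303 to 20.7–60.8 CPM. The death effector BAX fell (-1.54 ± 0.056).

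Of 23 interferon response genes 16 rose and 5 fell (median 0.50). RSAD2, the antiviral protein viperin, had no count in TGFb and lay at 16.2, 21.2, 22.6, 27.7 and 17.0 CPM in TrogGW, at least 565-fold higher. Its level in Trog was 16.2 to 27.0 CPM, which overlaps that of TrogGW. MX1, another antiviral protein, rose (2.79 ± 0.13). Cytokine and chemokine genes rose for 13 of 25 and fell for 10. The alarmin IL33 was at 78.7, 78.0, 75.3, 73.8 and 77.9 CPM in TGFb and 0.229, 0.185, 0.159, 0.416 and 0.169 CPM in TrogGW, nearly lost in all libraries (-8.31 ± 0.14). IL34, a ligand of the CSF1 receptor, fell (-4.56 ± 0.095). CXCR4, a chemokine receptor, had 2 counts in all of TGFb and 7.15 to 9.85 CPM in TrogGW, a ratio of 338 times (95% counting interval 93.3 to 2794). IL11, a cytokine of fibrosis, rose from 3.40–5.41 to 13.9–28.3 CPM (2.38 ± 0.17).

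Several of the largest rises were of genes nearly silent in TGFb. With 1 count over the 5 TGFb libraries, CYP24A1, which degrades active vitamin D, lay at 19.3 to 28.2 CPM in TrogGW, a ratio of 2067 times (95% counting interval 371 to 81666). ATP6V0D2, a proton pump subunit known from osteoclasts, gave 1639 times (95% counting interval 294 to 64771), the homeobox gene MSX1 1169 times (95% counting interval 209 to 46182) and GPR137C 2611 times (95% counting interval 468 to 103160.0). ARC, an immediate early gene of neurons, had 2 counts in TGFb and 42.9, 55.3, 53.1, 45.9 and 91.2 CPM in TrogGW, a ratio of 2277 times (95% counting interval 630.2 to 18807). GJB2, the gap junction protein connexin 26, went from 0–0.224 to 85.1–123 CPM and PEG10, an imprinted gene derived from a retroelement, was at 0.424, 0.548, 0.902, 0.298 and 0.435 CPM in TGFb and 113, 191, 238, 190.3 and 169.9 CPM in TrogGW (8.38 ± 0.21). Every TrogGW library exceeded every TGFb library for these genes, which their choice required. The largest fall was that of GABRP, a subunit of a GABA receptor, from 261 to 406 CPM to 1 count in all of TrogGW, a ratio of 41855 times (95% counting interval 7511 to 1653240.0). ABCA6, a lipid transporter of the ABC family, went from 16.7–20.9 to 0–0.115 CPM.

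**Figure D4:**
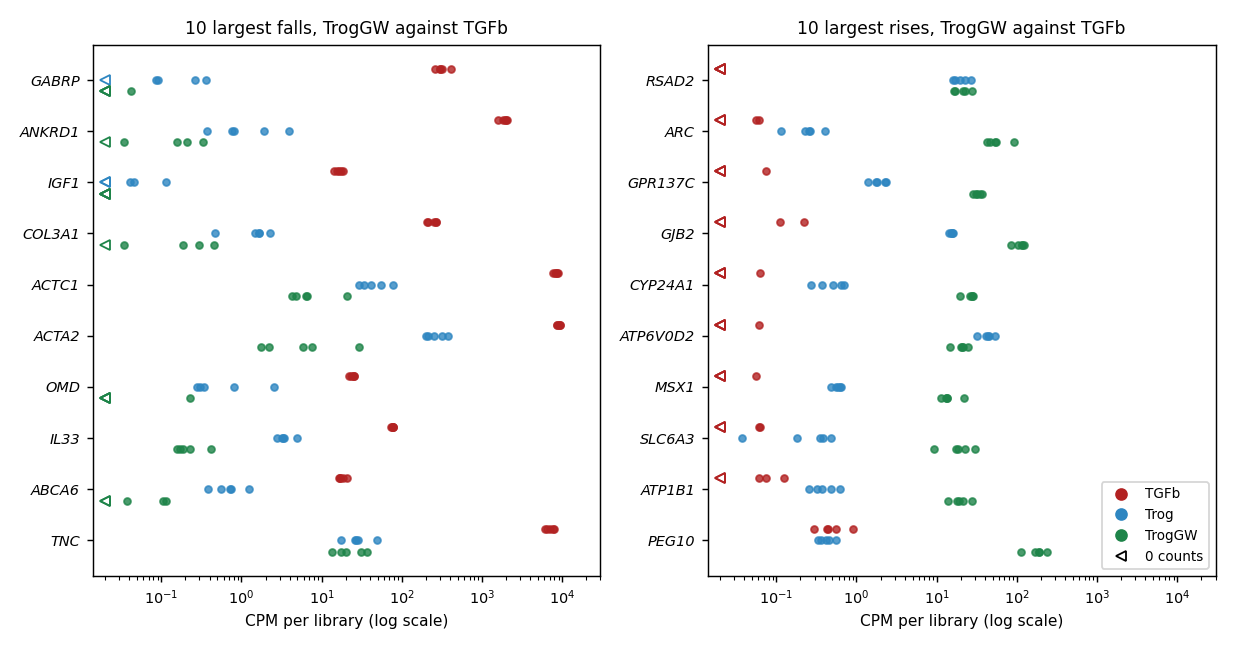
CPM per library on a log axis for the 10 genes with the largest falls and the 10 with the largest rises of TrogGW against TGFb that were at least 10 CPM in the higher group, with points for TGFb, Trog and TrogGW and overlaid open triangles for libraries with 0 counts. The groups TGFb and TrogGW do not overlap for any of the 20, which the choice of these genes required.

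Against Trog, where only GW9662 differed, 3868 genes (36.4%) were higher and 3774 (35.5%) lower in TrogGW. When all 25 libraries were fitted together, including 1 library of another drug group that stands apart, the counts were 2438 and 2182. Contractile and matrix genes were lower with the antagonist than without it: 14 of 18 contractile genes, 16 of 18 collagens and 21 of 27 matricellular genes were below Trog, and 2, 1 and 1 above. ACTA2 was at 212, 314, 374, 249 and 198 CPM in Trog, every library above every TrogGW library (-4.85 ± 0.42, edgeR BH-adjusted p = 1.12e-10, and -5.97 without TrogGW replicate 1). COL1A2, FN1 and VCAN were also lower (-2.03 ± 0.32, -1.50 ± 0.18 and -1.48 ± 0.11). COL1A2 moved to -2.75 without TrogGW replicate 1. Of 20 cholesterol synthesis genes 19 were lower than in Trog, of 24 ER folding genes 22 with 0 higher, and of 31 lysosome and autophagy genes 23 with 5 higher. HSPA5 was lower (-1.03 ± 0.12), whereas GCLC and SQSTM1 were higher (1.80 ± 0.06 and 1.73 ± 0.092). Of 25 PPAR and lipid droplet genes 13 were lower and 7 higher (11 and 10 with library totals alone). Cell cycle genes were higher, 18 of 28 for DNA replication and 20 of 29 for mitosis, among them CCNE2 (3.86 ± 0.13). Mitotic KIF20A had no count in Trog and lay at 0.438 to 1.01 CPM in TrogGW, at least 28.4-fold higher. Of the pyruvate carrier genes MPC1 was not called (0.029 ± 0.067, edgeR BH-adjusted p = 0.706), and MPC2 was lower (-0.31 ± 0.056).

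**Figure D5:**
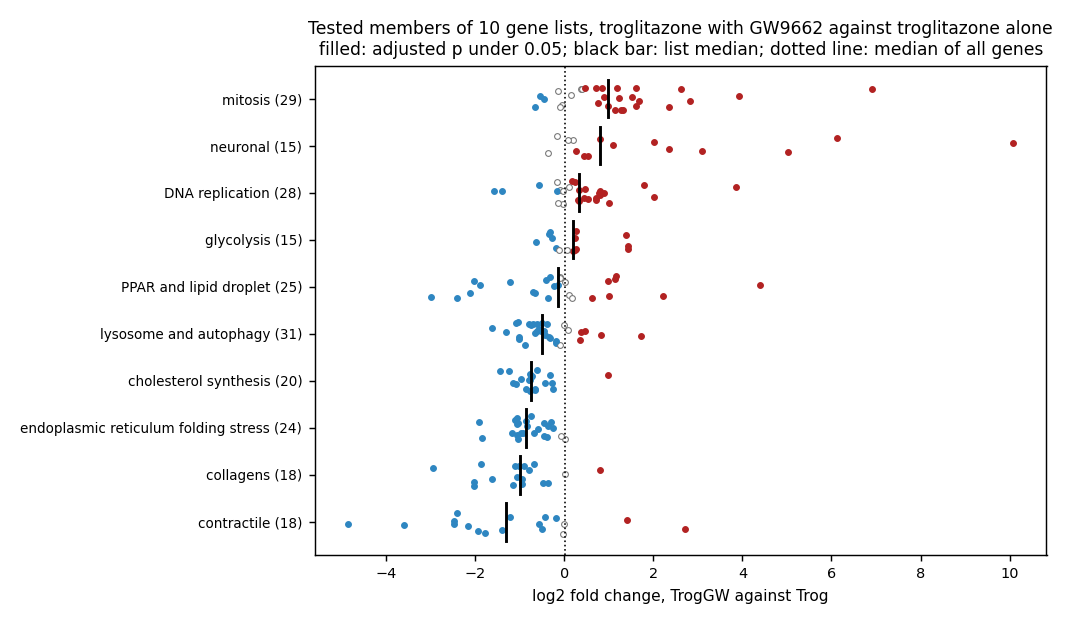
Log2 fold change of TrogGW against Trog for each tested member of 10 gene lists (1 point per gene, red if called higher, blue if called lower and open if not called, with a bar at the list's median and a dotted line at the median of all genes). Most members of the cholesterol, ER folding, lysosome and matrix lists lay below 0 and most of the cell cycle and neuronal lists above it.

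Neuronal genes set both day 5 groups apart. Of 28 in the files 15 were tested. Of these 11 were higher and 0 lower than in Trog, and 8 rose and 5 fell against TGFb. ELAVL3, with 199 counts in TrogGW, 2 in Trog and 1 in TGFb, passed the filter only through TrogGW. Such a member could only count as higher. The list median against TGFb, 1.22, was -0.51 at a minimum count of 50, which tests fewer genes. NEFM, the medium neurofilament chain, was at 6.49, 7.91, 6.71, 4.47 and 6.34 CPM in TGFb, 0.472, 0.307, 0.325, 0.335 and 0.0919 CPM in Trog and 249.9, 345, 317, 312 and 485 CPM in TrogGW. Every TrogGW library was far above and every Trog library below TGFb. The log2 fold change was 5.73 ± 0.15 against TGFb and 10.08 ± 0.21 against Trog (edgeR BH-adjusted p = 3.52e-23), and the change of Trog against the same TGFb libraries was -4.35 ± 0.32. NEFH, the heavy chain, rose from 0.121–0.560 to 15.7–28.0 CPM with Trog at 0.346 to 0.873 CPM. MAP2, of dendritic microtubules, was at 34.3, 28.8, 29.8, 31.1 and 29.7 CPM in TGFb and 221, 229.9, 234, 234 and 209 CPM in TrogGW, all higher (2.87 ± 0.054). NPTX1, a secreted synaptic pentraxin, was at 0 to 0.249 CPM in TGFb, 0.0858 to 0.307 CPM in Trog and 34.0, 53.7, 56.2, 54.2 and 68.5 CPM in TrogGW (8.37 ± 0.24 against Trog). NCAM1 and SCG5, also neuronal, fell against TGFb (-2.39 ± 0.17 and -3.07 ± 0.11). The summed list rose from 251 to 268 CPM in TGFb to 624 to 869 CPM in TrogGW, with ELAVL4 at 0 in both groups. NEFM and MAP2 together held most of the sum in TrogGW and little of it in TGFb, so the rise was not list-wide. The part that cells of another type could have in this rise was not tested.

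TEX14, a gene of germ cell bridges, was among the genes that rose most against Trog. It was at 9.16, 7.30, 7.72, 7.83 and 7.15 CPM in TGFb, 9.53 to 16.1 CPM in Trog and 1150.2, 2342, 2731, 2949 and 1794 CPM in TrogGW. All TrogGW libraries were far above both other groups (8.13 ± 0.22 against TGFb and 7.37 ± 0.21 against Trog). Of the genes called against TGFb in both TrogGW and Trog, 7209 moved in the same direction and 579 in opposite directions, 40 of these at least 2-fold in both. Besides NEFM, genes that moved in opposite directions from the shared TGFb libraries included NMB, a neuropeptide (3.54 ± 0.19 in TrogGW and -3.48 ± 0.38 in Trog), RGCC, a regulator of the cell cycle (4.12 ± 0.18 and -2.44 ± 0.36), and MARCKSL1, an actin regulator (2.04 ± 0.11 and -2.96 ± 0.14). MEST, an imprinted gene of mesoderm, and FOSB, an immediate early factor, did likewise (2.97 ± 0.14 and -2.22 ± 0.24, 2.16 ± 0.21 and -1.92 ± 0.28). Lower with the antagonist than without it were ADAMTS15 (-5.71 ± 0.25), the lipid transporter ABCA8 (-4.08 ± 0.21), the transporter SLC45A2 (-3.87 ± 0.17), the transcription factor OSR2 (-3.76 ± 0.14) and FGF1 (-3.68 ± 0.15). OSR2 was at 1.70 to 2.11 CPM in TrogGW and 19.4 to 28.6 CPM in Trog. The choice of TEX14, OSR2 and the others lower than in Trog required that TrogGW and Trog did not overlap.

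Against the untreated fibroblasts of day 0, TrogGW was higher for 4690 genes (44.1%) and lower for 4476 (42.1%). Most contractile and matrix genes lay below the level from which the myofibroblasts had started. Lower were 14 of 18 contractile genes, 16 of 18 collagens, 23 of 24 collagen processing genes and 22 of 27 matricellular genes. Higher in these 4 lists were 3, 1, 1 and 4 genes, and the highest log2 fold changes were 4.35, 2.15, 1.16 and 5.29. ACTA2 was at 2101, 1794, 2095, 1846 and 1869.7 CPM in FB, and TrogGW lay below every one of these libraries by a log2 fold change of -7.70 ± 0.47 (edgeR adjusted p = 1.68e-14). COL1A1 was at 36305 to 48953 CPM in FB, or -5.74 ± 0.22 for TrogGW, and FN1 at 20192 to 24849 CPM, or -1.36 ± 0.18. All 31 respiratory chain genes were below FB under TMM (26 with library totals), and all 29 mitosis genes as well, among them ANLN (-3.68 ± 0.084). Of 28 replication genes 23 were lower and 3 higher than in FB. Of the ATF4 list 10 genes were higher and 12 lower than in FB (12 and 11 with library totals alone), of the NRF2 list 13 and 8, and of the ER folding list 13 and 9. SLC3A2, GCLC, SQSTM1 and HSPA5 were above FB (2.58 ± 0.082, 3.19 ± 0.065, 4.12 ± 0.10 and 1.82 ± 0.12). Some genes showed no called difference from FB. SMAD7 was not called different (0.047 ± 0.07, edgeR BH-adjusted p = 0.535), and neither was PDGFRB (0.0019 ± 0.077). SPP1, the secreted phosphoprotein osteopontin, lay at 205 to 243 CPM in FB, 3444 to 4112 CPM in TGFb and 5997, 6365, 7818, 6062 and 6098 CPM in TrogGW, where it was higher than in both (0.79 ± 0.094 against TGFb and 4.87 ± 0.11 against FB).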

How the data were processed

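Per the labels' protocols, polyadenylated RNA was made into strand-marked TruSeq libraries and read on a NovaSeq sequencer. The authors deposited 1 table of raw read counts per sample, with 13949 gene symbols each. Named without roles in the submitters' processing notes are featureCounts, Salmon 1.5.2, STAR 2.7.9a, fastp 0.23.1 and Subread 2.0.1, and the genome build, annotation and strand setting are not given in the sources used here. Reads of genes that overlap another gene can therefore include the neighbour's. By the RefSeq gene table of the cat this concerns, among the genes named, ATP1B1 with NME7, CS with COQ10A, DDIT3 with MARS1, FTH1 with BEST1, HSPA5 with RABEPK, ITGA1 with PELO, LOXL3 with HTRA2, MDH2 with STYXL1, MPC2 with DCAF6, SQSTM1 with MGAT4B, TGFB1 with TMEM91 and TIMP1 with SYN1. Other named genes overlap a neighbour too, among them ANLN, CXCR4, ELOVL5, GSR, ID2, MX1, PAX6, PC, PDGFD, PDIA3, PDIA6, PPARG, PRC1, SLC16A3, STC2, TIMP2 and TWNK.

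The analysis used edgeR 4.0.16 in R 4.3.3. Scaling factors (TMM) came from all 25 libraries, and FB, TGFb, Trog and TrogGW (20 libraries of 17.5 to 24.2 M counts) were fitted together, with 1 mean per group and no block. A group treated with another drug was left out of the fit because 1 of its libraries stands apart, at a correlation of 0.851 to 0.867 with the others of its group. After edgeR's filter (minimum count 10, minimum total 15) 10638 genes were tested with the quasi-likelihood F test and BH adjustment over all of them, and called at an adjusted p under 0.05. SE was obtained by dividing the size of the log2 fold change by the root of F. Where a group had 0 counts, the fold is given as "at least", with 3 counts over that group as floor. For 1 to 3 counts a 95% counting interval is given, which covers counting error only. The code was tested on simulated counts.

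The members of the comparison and the gene lists (917 genes, 780 of them in the files) were chosen with earlier results of these data known. The rule for named genes takes ACTA2, MPC1, MPC2 and PPARG, the 10 largest rises and falls against TGFb and the 6 against Trog that reached 10 CPM in the higher of both groups without overlap, up to 4 members of each list in its direction and 2 against it by lowest p, and 6 genes of opposite direction. Not all genes it takes are described. For its largest rises and falls the lack of overlap was a condition of the choice and not a finding. Outside the rule, and chosen after their values were seen, are ANGPTL4, COL1A1, COL5A3, DDIT3, DUSP4, DUSP6, EGR3, FABP4, FN1, FOS, FOSL2, HSPA5, KIF20A, MAGEL2, NR4A2, PDK4, PPARA, RXRA, SGCE, SMAD3, SMAD7, SPP1, TGFBR2 and TPM1. Same-numbered replicates of TrogGW and TGFb did not deviate together (r of -0.045 to 0.064 across genes), so the numbers were not taken to pair samples. No 2 libraries of a group were duplicates: their counts differed by more than sampling noise. Alternatives were RLE, upper quartile and total-count scaling, DESeq2 1.42.0, limma 3.58.1 (voom), other filters, other sets of libraries, a replicate block and leaving out each library. Figures were drawn with matplotlib 3.10.9. Promoter sequences were not analysed here, and some genes are not reported here.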

Additional observations from a re-analysis of the deposited data

Results flagged for a closer look

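Of 396 groups of 5 values looked at (named genes and library measures in TGFb and TrogGW), 43 had a highest or lowest library whose gap to the next was over 0.71 of the whole range, Dixon's 95% value for 5 samples. Chance gives about 1 in 20. TrogGW held 25 and TGFb 18 of them, and 12 were of TrogGW replicate 1. In that library the values, in CPM with the next library's value, were highest for ACTA2 (29.4, next 7.65), ACTC1 (20.5, next 6.58), ATF3 (349, next 265), COL1A2 (824, next 318), FOSL2 (230.4, next 189), STARD4 (41.1, next 31.0), TPM2 (100.4, next 62.8) and VCAN (298, next 212), and its 10 highest genes took 9.35% of the counts (next 8.49%). It was lowest for ADAMTS1 (158, next 194), CYP24A1 (19.3, next 26.1) and MARCKSL1 (123, next 202). Log2 fold changes of ACTA2, ACTC1 and COL1A2 without this library are given with the results above.

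TrogGW replicate 5 was highest for ARC (91.2, next 55.3), EGR3 (17.4, next 12.2), FOS (158, next 85.7), FOSB (34.1, next 18.6), GABRP (0.0423, next 0), ID2 (96.8, next 56.5), MSX1 (22.2, next 13.6) and SFRP1 (3.30, next 2.15), which include 4 immediate early genes. TrogGW replicate 4 was highest for IL33 (0.416, next 0.229) and MCM6 (32.0, next 27.0) and lowest for EREG (4.47, next 9.12) and TIMP1 (1837, next 2227), and replicate 3 was highest for SPP1 (7818, next 6365).

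In TGFb, replicate 1 was highest for CRIM1 (1380.0, next 1187), DKK2 (1386, next 1181), FADS2 (282, next 259), ITGA3 (459, next 392), MGST1 (174, next 154), MSMO1 (437, next 388), SCD (1073, next 967) and SLC16A3 (431, next 371). Replicate 2 was highest for ATP6V0D2 (0.0608, next 0) and DGAT2 (3.16, next 2.31) and lowest for KDR (5.78, next 7.34), KIF20A (1.28, next 2.18) and RGCC (0.487, next 0.849). Replicate 3 was highest for MSX1 (0.0564, next 0). Replicate 4 was highest for GPR137C (0.0746, next 0) and PDK4 (0.0746, next 0). Replicate 5 was highest for CYP24A1 (0.0622, next 0) and EGR3 (0.249, next 0.0606). A value whose next is 0 is a single count.

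The 6 genes that the naming rule takes for opposite directions, not all such genes, rose with GW9662 and fell without it against the same TGFb libraries. The log2 fold change of TrogGW against Trog, the size of that difference, was 10.08 for NEFM, 7.02 for NMB, 6.57 for RGCC, 5.19 for MEST, 5.00 for MARCKSL1 and 4.08 for FOSB. Each was called by edgeR's quasi-likelihood test. The genes were chosen by opposite changes in these same data, so these calls add no support.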

How the results depend on the processing

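Counts of genes called and their directions rested most on the scaling. With library totals alone 8118 genes were higher and 1614 lower in TrogGW than in TGFb, 5100 and 736 of them at least 2-fold, and 2464 genes were lower than in Trog and 2627 lower than in FB. The share of called genes that were higher than in TGFb was 54.2% with TMM, 52.7% with RLE, 59.6% with upper quartile scaling and 83.4% with totals. Against Trog it was 50.6%, 48.1%, 58.6% and 68.2%, and against FB 51.2%, 51.1%, 54.1% and 71.7%. Totals also turned the medians of TGF-beta and BMP signalling (0.76), pyruvate metabolism (0.23), the TCA cycle (0.35), oxidative phosphorylation (0.11), mitochondrial biogenesis and dynamics (0.85), fatty acid oxidation (0.13), serine and folate (0.57), mitosis (0.39) and Wnt signalling (0.12), and the log2 fold changes of MPC1 (0.34) and MPC2 (0.16) against TGFb and of CPT1A (0.066) and GSR (0.00091) against Trog. Medians close to 0 turned elsewhere too. ER folding went to -0.0051 with RLE and -0.0044 with DESeq2. TGF-beta and BMP signalling went to 0.038 with upper quartile scaling and 0.00068 at a minimum count of 50. Mitochondrial biogenesis and dynamics went to 0.12 with upper quartile scaling, 0.0015 with voom and 0.029 at a minimum count of 50. At that minimum, which tests fewer genes, the metalloproteinase median was -0.21 and the neuronal one -0.51. Without 1 library at a time, ER folding ranged from -0.0028 (without TGFb replicate 5) to 0.065, growth factors from -0.028 (without TrogGW replicate 1) to 0.080, turning also without TrogGW replicate 5 (-0.024), and mitochondrial biogenesis and dynamics from -0.040 to 0.12, turning without TGFb replicates 2, 4 and 5 (0.12, 0.021 and 0.010) and TrogGW replicate 5 (0.042). With all 25 libraries in 1 fit, 2438 genes were higher and 2182 lower than in Trog. The cause of these changes was not tested beyond the settings themselves. Leaving out 1 library at a time gave 4905 to 4996 genes higher and 4167 to 4227 lower than in TGFb. Among genes named, the calls against Trog that were lost without 1 library were those of COL1A1, CPT1A, DDIT3, ENO1, IGF1, MRTFA and SLC7A11. With a replicate block 4953 genes were higher and 4189 lower than in TGFb, and the replicate numbers give no pairing: each library of TrogGW correlated best with its own number in TGFb for 2 of 5. Depth limits the genes with 0 to 3 counts in a group, whose folds are given as bounds or with counting intervals.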

Other observations

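A few genes known for restriction to other cell types were higher in TrogGW, but the marker lists moved in both directions. Of 6 tested markers of vascular endothelium 3 rose and 2 fell, among them ERG (76.4–81.8 to 47.8–54.1 CPM). Of 6 tested immune markers 3 rose and 1 fell, LAPTM5 (0.846–1.79 to 0–0.153 CPM). KDR, the VEGF receptor of endothelium, was at 7.58, 5.78, 7.84, 7.61 and 7.34 CPM in TGFb and 37.5, 52.3, 51.6, 46.2 and 47.3 CPM in TrogGW, higher in every library (2.7 ± 0.097). CSF1R, the macrophage growth factor receptor, went from 0.0608–0.224 to 3.67–5.25 CPM (4.84 ± 0.29), with PTPRC, AIF1 and TYROBP at 0. In Trog it lay at 5.01 to 6.31 CPM, which overlaps TrogGW. SLC6A3, the dopamine transporter, was at 9.29, 18.4, 30.1, 22.4 and 17.7 CPM in TrogGW and at 0–0.0622 CPM in TGFb.

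Imprinted genes, a list of 19 in the files chosen after the values were seen, moved in both directions, with 6 of 15 tested higher than in TGFb and 8 lower. PEG10, CDKN1C, IGF2 and MEST rose (8.38 ± 0.21, 7.45 ± 0.33, 3.66 ± 0.18 and 2.97 ± 0.14). MAGEL2 fell (-3.09 ± 0.20). So did SGCE (-1.16 ± 0.081), which lies beside PEG10 on the genome. Immediate early genes, chosen in the same way, were higher for 13 of 27 and lower for 11. EGR3 went from 0–0.249 to 10.1–17.4 CPM, and DUSP6 and NR4A2 rose (5.19 ± 0.20 and 3.04 ± 0.16), whereas FOS, FOSL2 and DUSP4 fell (-2.35 ± 0.32, -1.29 ± 0.066 and -1.92 ± 0.14). EGR3 had few counts in TGFb. Neither list was tested as a list.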
